A study of Mus musculus with 48 samples.

Results

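Uap1l1 and 6 genes of the hexosamine pathway (Gfpt1, Gfpt2, Gnpnat1, Pgm3, Uap1 and Ogt) were described over 48 single-colour Agilent arrays of cultured mouse lung cells. They are 7 of the 20738 genes that the array's named probes covered. The members were selected on measured values of these arrays: Uap1l1 was chosen by its low level in smooth muscle cells given vapour extract, and the other 6 were taken as the named steps of the pathway. The low level of Uap1l1 in those cells is therefore a description and carries no test here. All 7 genes lay above the filter for dim probes in every fit.

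The hexosamine pathway turns a share of the cell's glucose into UDP-N-acetylglucosamine (UDP-GlcNAc), the sugar donor for N-glycans, hyaluronan, GPI anchors and the O-GlcNAc mark on nuclear and cytosolic proteins. Gfpt1 and Gfpt2 encode the glutamine-dependent first and rate-limiting enzyme, Gnpnat1 the acetyltransferase that follows, Pgm3 the mutase that moves the phosphate, and Uap1 the pyrophosphorylase that makes UDP-GlcNAc. Uap1l1 encodes a protein related to Uap1, and Ogt encodes the transferase that places O-GlcNAc on proteins. In the lung, epithelial cells use the donor for surface glycoproteins and smooth muscle cells for hyaluronan and other matrix.

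Cells came from C57Bl/6J mice, with no allele or transgene named. AECII (alveolar epithelial type II cells) were cultured in medium with 10% fetal bovine serum and exposed from 24 h after isolation, and PASMC (pulmonary artery smooth muscle cells) were grown in medium with 15% serum and used at passage 1. Each cell type was measured in 8 control arrays (labelled room air), 8 arrays after 24 h in 15% e-cigarette vapour extract from a nicotine-free liquid (0 mg/ml), and 8 arrays after the same extract from a liquid with 18 mg/ml nicotine. Vehicle controls for the extract are not named in the labels. The cells came from 8 mice, and the labels do not say which replicate number is which mouse, so p-values measure the spread between these arrays.

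The arrays of a group correlated with r of 0.978 to 0.986 in AECII and 0.953 to 0.986 in PASMC. The labelled cell types were checked against marker lists. The mean of 9 alveolar type II markers was 8.83 to 8.85 (log2 intensity) in the AECII groups and 5.67 to 5.84 in the PASMC groups, and the mean of 8 smooth muscle markers was 7.54 to 7.60 and 10.36 to 10.57. Not every marker followed its list: Etv5 read 7.47 in control AECII and 9.73 in control PASMC, and Slc34a2 read 2.63 and 2.60, below the filter in both. Lamp3 read 10.91 and 10.60 in turn, and the smooth muscle marker Lmod1 2.46 and 3.17. Both kinds of culture held signal of markers listed for other cells. The smooth muscle markers Acta2, Tagln and Myh11 read 11.71, 12.83 and 3.08 in control AECII, beside 14.98, 15.23 and 7.26 in control PASMC. The 3 mesothelial markers averaged 10.70 to 10.80 in AECII. The 3 airway markers averaged 7.98 to 8.04 there, with Scgb1a1 at 15.73, Foxj1 at 6.11 and Scgb3a2 at 2.19 in control. The 5 fibroblast markers averaged 7.34 to 7.46 in AECII and 9.72 to 9.84 in PASMC. The surfactant gene Sftpc ranged from 1.72 to 11.82 over the PASMC arrays. The 6 macrophage markers averaged 5.39 to 7.98 per array in AECII and 4.78 to 9.04 in PASMC.

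The windows of 250 bases upstream of the RefSeq start (GRCm38.p6) are printed for 3 members. Among the other members, these had the smallest limma adjusted p between control AECII and control PASMC. Gfpt1 and Uap1 were higher in AECII, and Gfpt2 was higher in PASMC. For Gfpt1 the difference rests on its brightest probe, as given below. Gfpt1 lies on the plus strand with its window at chr6:87042596-87042845, Gfpt2 on the plus strand at chr11:49793905-49794154, and Uap1 on the minus strand at chr1:170174965-170175214. The lines run 5' to 3' towards the start, and capitals mark GC boxes (GGGCGG on either strand), the element bound by Sp1-type factors.
Gfpt1: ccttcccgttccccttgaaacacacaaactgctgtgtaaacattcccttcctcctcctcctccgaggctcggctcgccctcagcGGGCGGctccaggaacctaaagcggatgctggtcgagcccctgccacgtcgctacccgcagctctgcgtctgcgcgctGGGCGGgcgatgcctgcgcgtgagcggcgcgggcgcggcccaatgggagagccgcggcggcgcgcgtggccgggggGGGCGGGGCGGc
Gfpt2: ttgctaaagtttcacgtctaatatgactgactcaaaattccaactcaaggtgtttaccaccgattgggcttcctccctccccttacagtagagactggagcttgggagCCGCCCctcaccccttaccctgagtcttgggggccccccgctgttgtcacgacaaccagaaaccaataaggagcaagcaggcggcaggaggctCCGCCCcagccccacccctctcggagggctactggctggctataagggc
Uap1: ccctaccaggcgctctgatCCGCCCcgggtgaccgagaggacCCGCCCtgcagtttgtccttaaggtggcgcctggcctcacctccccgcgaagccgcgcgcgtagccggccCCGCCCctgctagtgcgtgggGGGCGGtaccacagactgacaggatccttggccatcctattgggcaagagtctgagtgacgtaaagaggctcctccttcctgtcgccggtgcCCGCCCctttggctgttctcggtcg
Gfpt1 held 4 GC boxes, of which the last 2 overlap in the run nearest the start, and had a GC content of 72.0%. Uap1 held 5 at a GC content of 67.2%, and Gfpt2 held 2 at 57.6%. RefSeq windows were matched for 5 members (6 windows). Uap1l1 and Gnpnat1 had no window, so their promoters were not searched. The other 3 windows held 5 matches in Pgm3 and 1 in each of the 2 windows of Ogt. Over all 32851 windows of the table, 32.7% held a GC box. The other 5 motifs searched, on both strands, had no match in these 6 windows: CACGTG (E-box, in 6.0% of all windows), TCACGTGA (inner part of the CLEAR element, 0.8%, which contains the E-box), TGATGNAA (ATF4 element, 3.5%), TGACGTGG (XBP1 element, 0.6%) and TGACNNNGC (antioxidant response element, 10.2%). These are matches of letters within the windows, not measured binding.

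Uap1l1, on chromosome 2 in the same RefSeq build, had its highest mean in control PASMC and its lowest in PASMC given extract, while its 3 AECII groups had nearly one level. In the 8 control PASMC arrays it read 10.92, 10.16, 10.83, 11.02, 11.10, 10.42, 11.15 and 10.78 (log2 intensity, mean 10.80 ± 0.34 SD). In the 8 nicotine-free extract arrays it read 9.90, 10.26, 10.16, 9.90, 9.56, 10.28, 10.37 and 9.98 (mean 10.05 ± 0.27). In the 8 nicotine extract arrays it read 10.02, 9.80, 9.80, 9.93, 9.74, 9.62, 10.05 and 10.04 (mean 9.87 ± 0.16). All 8 nicotine extract arrays lay below the lowest control array, and the share of all genes that separate in this way was not counted. The nicotine-free arrays overlapped the control range only through control array 2, the lowest of the controls, and 5 of the 8 lay below it before rounding.

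The nicotine-free extract group was lower than control PASMC by 1.68-fold in Uap1l1 (log2 difference -0.75, SE 0.14, 95% interval -1.03 to -0.47). The nicotine extract group was lower by 1.90-fold (-0.93, SE 0.14, interval -1.20 to -0.65). These 2 differences share the 8 control arrays, so they are not independent of each other. Between the extracts the difference was -0.18 (SE 0.14, interval -0.46 to 0.10) with the nicotine extract lower, which is close to its error. Across all genes, limma called 0 of 14545 (0%) for the nicotine-free extract and 4 (0.0275%) for the nicotine extract, all 4 lower and Uap1l1 among them, and 0 (0%) between the extracts. Since Uap1l1 was chosen on these values, nothing is read from its place among the 4. No gene was called for the nicotine extract with the replicate number or the runs of 8 accessions as a block, or with only the 16 arrays compared in the fit, and leaving out 1 array gave 1 gene called in 14 of 16 cases and 4 in the others. At an unadjusted p under 0.05 the 3 comparisons held 402, 589 and 282 genes.

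The PASMC arrays differed in how much epithelial and macrophage signal they carried. With only the arrays whose Sftpc was at or below 6, the Uap1l1 differences were -0.78 (SE 0.22) and -0.98 (SE 0.22). With these fewer arrays 0 genes were called for the nicotine extract. This fit and those with 1 array left out hold arrays on which Uap1l1 was chosen, so they are no separate support. The part of the epithelial signal in the Uap1l1 level was not tested. The mean of the macrophage list was 6.59, 6.59 and 6.46 in the control, nicotine-free and nicotine groups of PASMC, and its part in the Uap1l1 level was not tested. Leaving out 1 array at a time gave Uap1l1 differences of -0.84 to -0.68 for the nicotine-free extract and -1.02 to -0.87 for the nicotine extract. In bulk cultures fewer cells of a type and less RNA per cell cannot be told apart.

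In AECII, Uap1l1 did not differ between conditions beyond the spread of the arrays. Its lowest, median and highest values were 9.90, 10.36 and 10.85 in control, 9.77, 10.34 and 10.86 with the nicotine-free extract, and 9.75, 10.42 and 10.92 with the nicotine extract. The means were 10.37 ± 0.35, 10.35 ± 0.32 and 10.37 ± 0.38 (SD, n = 8 each), and the 3 ranges nearly coincided. The log2 difference from control was -0.02 (SE 0.17, 95% interval -0.37 to 0.33, limma adjusted p = 0.999) for the nicotine-free extract. For the nicotine extract it was 0.0014 (SE 0.17, interval -0.35 to 0.35, limma adjusted p = 1). Both intervals leave room for a difference in either direction.

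In order of its mean, Uap1l1 stood at 10.80 in control PASMC, at 10.37 to 10.35 in the 3 AECII groups, at 10.05 in PASMC with nicotine-free extract and at 9.87 in PASMC with nicotine extract. Neighbouring groups in this order overlapped in their arrays. Control AECII were lower than control PASMC by 0.43 on the log2 scale (-0.43, SE 0.16), whereas AECII were higher by 0.29 (SE 0.16) with nicotine-free extract and by 0.49 (SE 0.16) with nicotine extract. These values hold the PASMC arrays on which Uap1l1 was chosen and are given without a test, and the 95% interval with nicotine-free extract (-0.019 to 0.61) includes 0. The response in PASMC minus that in AECII was -0.73 (SE 0.22) for the nicotine-free extract and -0.93 (SE 0.22) for the nicotine extract. In these 2 comparisons of responses limma called 0 of 14775 genes (0% in each), with 393 and 382 at an unadjusted p under 0.05.

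**Figure D1:**
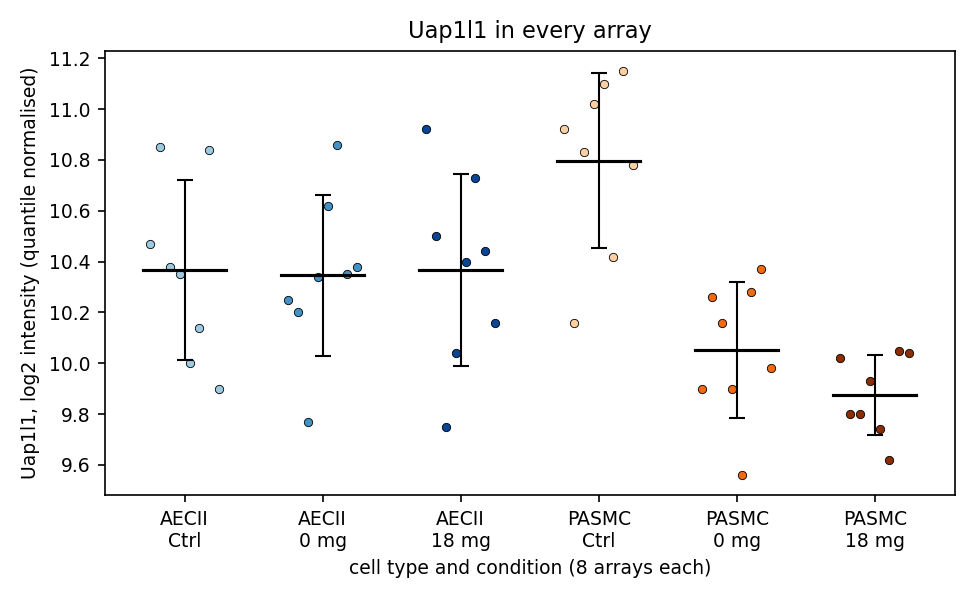
Uap1l1 in each of the 48 arrays, by cell type and condition (8 arrays each). The y axis is log2 intensity, points are arrays, lines are group means and bars are 1 SD. The nicotine extract arrays of PASMC lie at 9.62 to 10.05, below every control PASMC array (10.16 to 11.15), while the AECII groups cover nearly the same range.

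None of the other 6 members was called for extract in the comparisons tested. In AECII, 0 of the 7 members were called for the nicotine-free extract, the nicotine extract or the 2 extracts against each other, against a background of 0 of 14477 genes (0%, 0% and 0%). At an unadjusted p under 0.05 these comparisons held 480, 341 and 447 genes, and no member. In PASMC, 0 of the other 6 members were called for the nicotine extract against control or against the nicotine-free extract. Over all genes 4 (0.0275%) and 0 (0%) of 14545 were called there. The members' differences for the nicotine-free extract, a contrast behind the choice of Uap1l1, are given without a test.

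Gfpt1, the widely expressed form of the rate-limiting enzyme, read 9.87 ± 0.13, 9.93 ± 0.12 and 9.91 ± 0.10 in control, nicotine-free and nicotine AECII (mean ± SD, n = 8 each). In PASMC it read 9.40 ± 0.11, 9.51 ± 0.22 and 9.49 ± 0.14. Its differences from control were 0.061 (SE 0.069) and 0.044 (SE 0.069) in AECII and 0.11 (SE 0.09) and 0.084 (SE 0.09) in PASMC, for the nicotine-free and the nicotine extract in turn. None of those tested was called, and the sign in PASMC with nicotine extract depends on the probe, at -0.13 for the mean of all 3 Gfpt1 probes.

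Gfpt2, the second form of the same enzyme, varied more between arrays of a group than Gfpt1 did, with SDs of 0.46 to 0.52. Its differences from control were 0.029 and -0.18 in AECII (SE 0.24 each) and -0.024 and -0.073 in PASMC (SE 0.24 each). The 95% intervals for the nicotine extract ran from -0.69 to 0.32 in AECII and from -0.56 to 0.41 in PASMC. Shifts within these ranges, in either direction, are not excluded by these arrays.

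Gnpnat1 differed from control by 0.17 (SE 0.12) and 0.14 (SE 0.12) in AECII and by -0.18 (SE 0.18) and -0.082 (SE 0.18) in PASMC. Its second probe (mean 5.59) gave the opposite signs, at -0.26 and -0.44 in AECII and 0.15 and 0.18 in PASMC, and neither probe gave a call, so no direction is read for Gnpnat1. Pgm3 differed by -0.075 and -0.057 in AECII (SE 0.093 each) and by 0.012 and 0.065 in PASMC (SE 0.089 each). Neither of these 2 middle steps of the pathway was called in the comparisons tested.

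Uap1, the enzyme to which Uap1l1 is related, differed from control by 0.091 (SE 0.089) and 0.16 (SE 0.089) in AECII. The nicotine value had the smallest unadjusted p of any member in AECII (0.0855, limma adjusted p = 1). In PASMC, where Uap1l1 was low with extract, Uap1 differed by 0.091 (SE 0.11) and 0.032 (SE 0.11), and its nicotine extract interval ran from -0.19 to 0.25. Ogt, which spends UDP-GlcNAc on intracellular proteins, differed by 0.20 (SE 0.14) with either extract in AECII and by 0.069 and 0.064 (SE 0.25 each) in PASMC, where its arrays spread from 5.34 to 7.20.

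**Figure D2:**
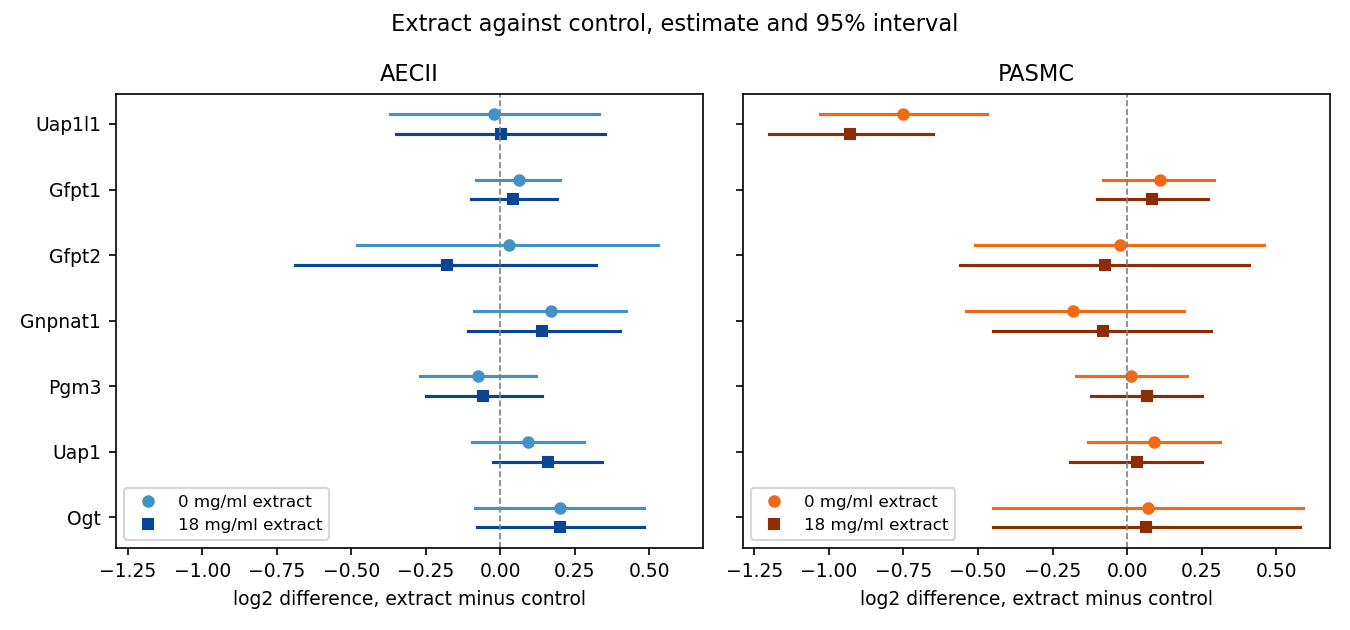
Log2 difference of extract minus control for the 7 members in AECII (left) and PASMC (right), with 95% intervals from limma. Circles are the nicotine-free extract and squares the nicotine extract. Uap1l1 was chosen on the PASMC values, so its intervals there (-1.03 to -0.47 and -1.20 to -0.65) are a description and no test. The PASMC intervals of the other members include 0. In AECII all intervals include 0.

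Of the 6 members other than Uap1l1, 2 were higher in control AECII (Gfpt1 and Uap1) and 2 were lower (Gfpt2 and Pgm3), by limma over 14775 genes. Over all genes 59.2% were called in that comparison (27.9% higher and 31.3% lower in AECII), so 4 of 6 is near the background. The same 4 were called in the same directions with nicotine-free extract (58.7% of all genes called, 27.9% higher and 30.9% lower) and with nicotine extract (58.3%, 28.0% higher and 30.3% lower). Culture medium, passage and time since isolation differed with the cell type and cannot be told apart from it. The part of the mesothelial, airway and smooth muscle signal in AECII and of the fibroblast signal in either culture was not tested.

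Gfpt2 showed the widest gap. Its lowest, median and highest values were 7.44, 7.92 and 9.03 in control AECII and 9.30, 10.20 and 10.61 in control PASMC. With nicotine-free extract they were 7.49, 8.03 and 8.85 against 9.31, 10.08 and 10.62, and with nicotine extract 7.17, 7.83 and 8.55 against 9.29, 10.08 and 10.65. All 24 AECII arrays lay below all 24 PASMC arrays. Here and for the members below, the share of all genes whose arrays separate as fully was not counted. Gfpt2 was lower in AECII by 4.19-fold in control (log2 difference -2.07, SE 0.24, limma adjusted p = 5.61e-10), by 4.04-fold with nicotine-free extract (-2.02, SE 0.24) and by 4.53-fold with nicotine extract (-2.18, SE 0.24).

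Gfpt1 ran the other way. It ranged from 9.59 to 10.00 in control AECII and from 9.24 to 9.63 in control PASMC, and 7 of the 8 AECII arrays lay above the highest PASMC array. It was higher in AECII by 1.38-fold in control (0.46, SE 0.077, limma adjusted p = 1.23e-06) and by 0.42 (SE 0.077) with each extract. The 2 forms of the rate-limiting enzyme thus differed between the cell types in opposite directions, each gene read on its own probe. The other Gfpt1 probes were dim, with means of 3.18 and 2.33 over all arrays beside a filter at 2.73, and the mean of all 3 probes lost the call in control (0.21, adjusted p = 0.159) and with nicotine-free extract (0.29, adjusted p = 0.0559).

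Uap1 was higher in AECII by 1.34-fold in control (0.43, SE 0.097, limma adjusted p = 0.00019), by 0.43 (SE 0.097) with nicotine-free extract and by 0.55 (SE 0.097, limma adjusted p = 3.27e-06) with nicotine extract. Its lowest, median and highest values were 9.38, 9.63 and 9.95 in control AECII and 8.86, 9.23 and 9.65 in control PASMC, so the control ranges overlapped. With nicotine extract they were 9.56, 9.84 and 9.97 against 9.02, 9.28 and 9.49, and no array overlapped. The difference of the responses was -0.13 (SE 0.14, limma adjusted p = 1), so the wider gap was not a called change.

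Pgm3 was lower in AECII by 0.28 on the log2 scale in control (-0.28, SE 0.089, limma adjusted p = 0.00684), and the differences were -0.36 (SE 0.089, adjusted p = 0.000476) with nicotine-free and -0.40 (SE 0.089, adjusted p = 0.000148) with nicotine extract. Its control values were 7.85, 8.17 and 8.40 (lowest, median, highest) in AECII and 8.09, 8.49 and 8.73 in PASMC. The direction rests on the brighter of 2 Pgm3 probes: the other, dim at a mean of 2.92, gave 0.53 (SE 0.29) in control, with AECII higher and no call, and the mean of both probes was called in none of the 3 conditions. With the PASMC arrays at or below 6 for Sftpc, the nicotine-free value was -0.26 (adjusted p = 0.056).

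Gnpnat1 and Ogt were not called between the cell types. Gnpnat1 ranged from 7.35 to 7.86 in control AECII and from 7.12 to 8.28 in control PASMC, with a difference of -0.086 (SE 0.15, 95% interval -0.40 to 0.22, limma adjusted p = 0.659), and the differences with the extracts were 0.26 and 0.14 (SE 0.15 each). Ogt ranged from 6.08 to 6.96 in AECII and from 5.34 to 7.17 in PASMC, with a difference of -0.011 (SE 0.20, interval -0.42 to 0.40, limma adjusted p = 0.969) in control. For both genes a second probe read otherwise. The second Gnpnat1 probe (mean 5.59) gave -0.64 with nicotine-free extract (limma adjusted p = 0.000102) and -0.85 with nicotine extract (7.42e-07), and the second Ogt probe (mean 5.90) gave -0.62 in control (0.00495), all with AECII lower. The probes of these 2 genes therefore did not give one answer on the cell types.

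**Figure D3:**
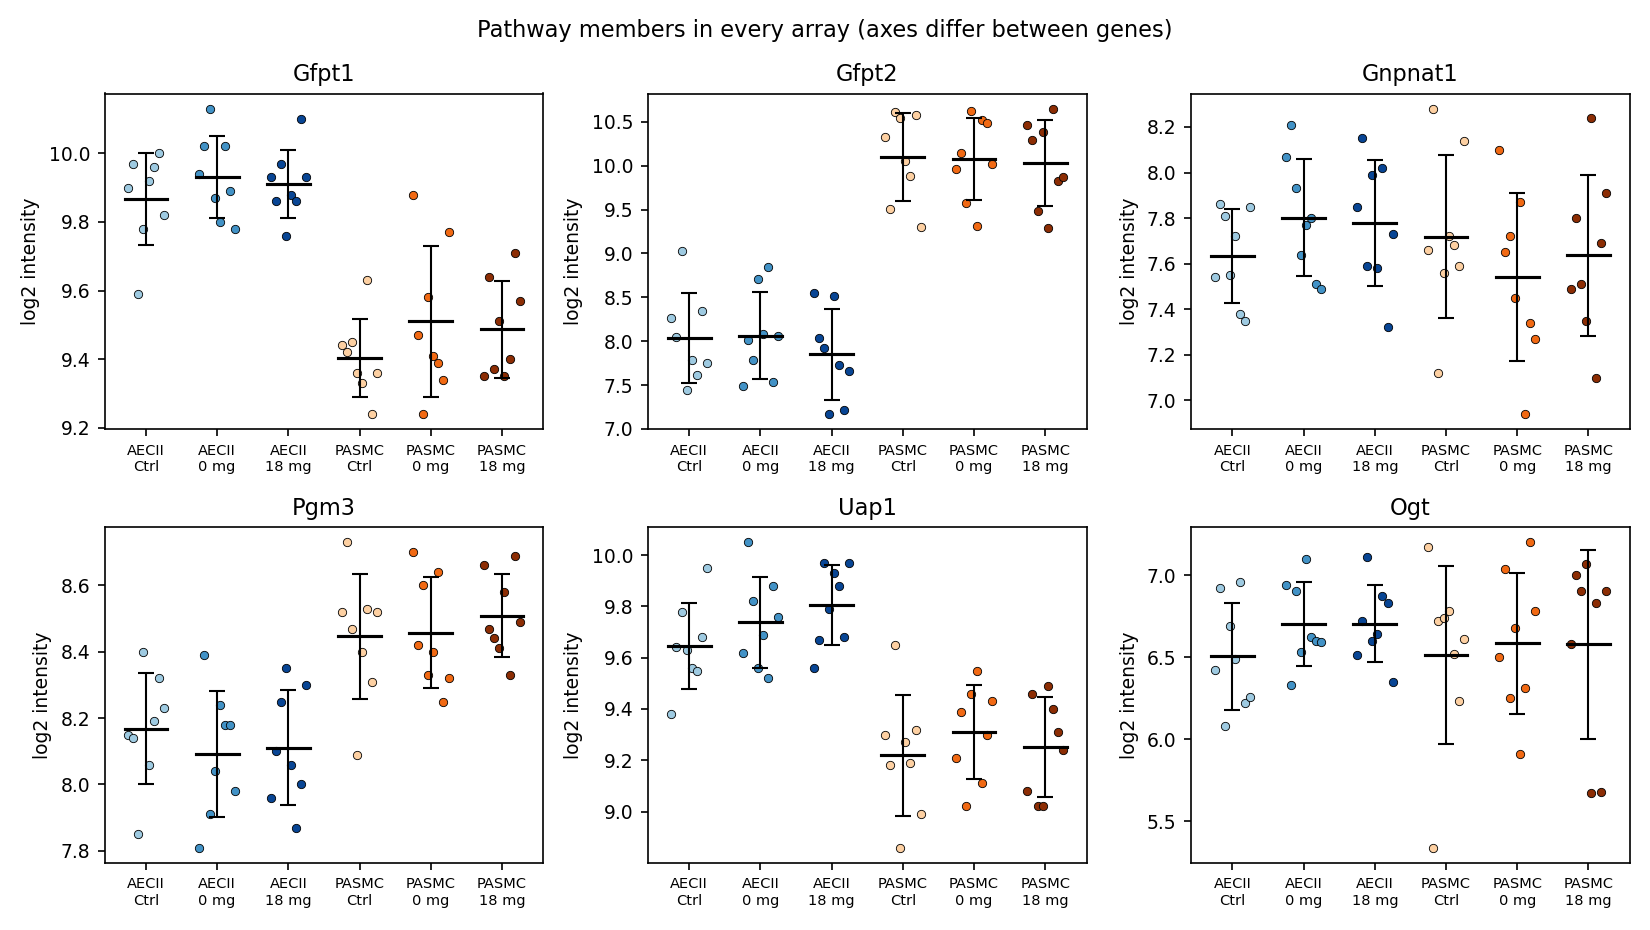
The 6 other members in every array, by cell type and condition. The y axes are log2 intensity and differ between genes, points are arrays, lines are means and bars are 1 SD (n = 8). The AECII arrays of Gfpt2 (7.17 to 9.03) lie below all PASMC arrays (9.29 to 10.65), while the 3 conditions of a cell type overlap in every panel.

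Around the pathway, 9 lists of entry, salvage, nucleotide sugar and glycan genes held 73 genes, of which 71 were on the array. In control cells 69 were tested, and 24 were higher and 29 lower in AECII, beside 27.9% and 31.3% of all genes. With extract no gene of these lists was called in AECII or in PASMC. For the nicotine-free and the nicotine extract against control, the unadjusted limma p was under 0.05 for 2 and 0 of 69 listed genes in AECII. In PASMC it was for 5 and 5 of 70. Over all genes the counts were 480 and 341 of 14477 in AECII and 402 and 589 of 14545 in PASMC.

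Of the glucose entry and salvage steps in control cells, 7 of 8 genes were lower in AECII and none was higher, with a median difference of -0.99 beside -0.044 over all genes. Nagk, the kinase that returns free N-acetylglucosamine to the pathway, was lower by 1.43 on the log2 scale (-1.43, SE 0.19, limma adjusted p = 9.35e-09), with arrays at 7.24 to 8.30 in AECII and 8.84 to 9.81 in PASMC. Amdhd2, which takes the acetyl group off N-acetylglucosamine 6-phosphate, differed by -1.19 (SE 0.10), and the glucosamine-6-phosphate deaminases Gnpda2 and Gnpda1, which run the first step in reverse, by -1.11 (SE 0.12) and -0.86 (SE 0.13). Renbp, which converts N-acetylglucosamine to N-acetylmannosamine, differed by -1.04 (SE 0.19), and the glycolytic isomerase Gpi1 by -0.95 (SE 0.11). The hexokinases differed by -0.39 (Hk2, SE 0.12, called) and 0.094 (Hk1, SE 0.094, not called). With either extract 6 of the 8 were lower in AECII, with Hk2 no longer called.

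In PASMC given nicotine extract, the 8 salvage and entry genes had a median difference from control of -0.24 and none was positive, but none was called. Gnpda1 came closest, at -0.48 (SE 0.094, limma adjusted p = 0.0798), from 9.73 to 10.11 in control to 9.20 to 9.78 with nicotine extract. Nagk differed by -0.47 (SE 0.20) and Renbp by -0.36 (SE 0.14), both at an adjusted p of 1. With nicotine-free extract the list's median was -0.17, and in AECII it was 0.09 and 0.02. Over all genes the medians lay at 0.004 to 0.012.

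Genes of O-GlcNAc, hyaluronan and N-glycan steps differed in both directions between the cell types. All 3 genes listed for O-GlcNAc cycling and extracellular O-GlcNAc were higher in control AECII. Oga, which removes the mark, was higher by 0.56 (SE 0.19). Eogt, which places O-GlcNAc on secreted proteins, was higher by 0.43 (SE 0.17), and Hcfc1, a partner of Ogt, by 0.32 (SE 0.12). With nicotine-free extract 1 of these 3 was called and with nicotine extract 2. Ogt, counted among the members, was not called in control (-0.011, SE 0.20), and its second probe was lower in AECII (-0.62, limma adjusted p = 0.00495). The hyaluronan synthases differed in opposite directions: Has2 was lower in control AECII (-2.72, SE 0.25, limma adjusted p = 5.5e-13), at 5.96 to 7.35 against 9.14 to 10.51, and Has1 was higher (1.56, SE 0.21). Of 10 genes of N-glycan branching and trimming tested, 3 were higher and 4 lower, with the branching enzyme Mgat4a at 2.74 (SE 0.24), whose PASMC control mean of 2.78 is at the filter, and the mannosidase Man2a2 at -1.68 (SE 0.17).

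These counts and those of the lists that follow stand beside 27.9% higher and 31.3% lower over all genes, and with few genes a list they are a description of the named genes only. Among the carriers that bring nucleotide sugars into the Golgi and endoplasmic reticulum, 4 of 8 were higher and 2 lower in control AECII. Slc35c1, the GDP-fucose carrier, was higher by 1.55 (SE 0.11), and the UDP-GlcNAc carrier Slc35a3 by 0.35 (SE 0.14). Of the 4 sialic acid genes, Gne, whose enzyme starts from UDP-GlcNAc, was higher by 0.60 (SE 0.087) and Cmas by 0.52 (SE 0.15), and Nans was lower (-0.24, SE 0.089). Dolichol-linked assembly had 5 higher and 5 lower of 13, with Dpagt1, which transfers the first sugar phosphate from UDP-GlcNAc, at -0.24 (SE 0.069). The first step of GPI anchor synthesis had 2 higher and 2 lower of 6, and the other nucleotide sugar enzymes 4 higher and 7 lower of 15.

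**Figure D4:**
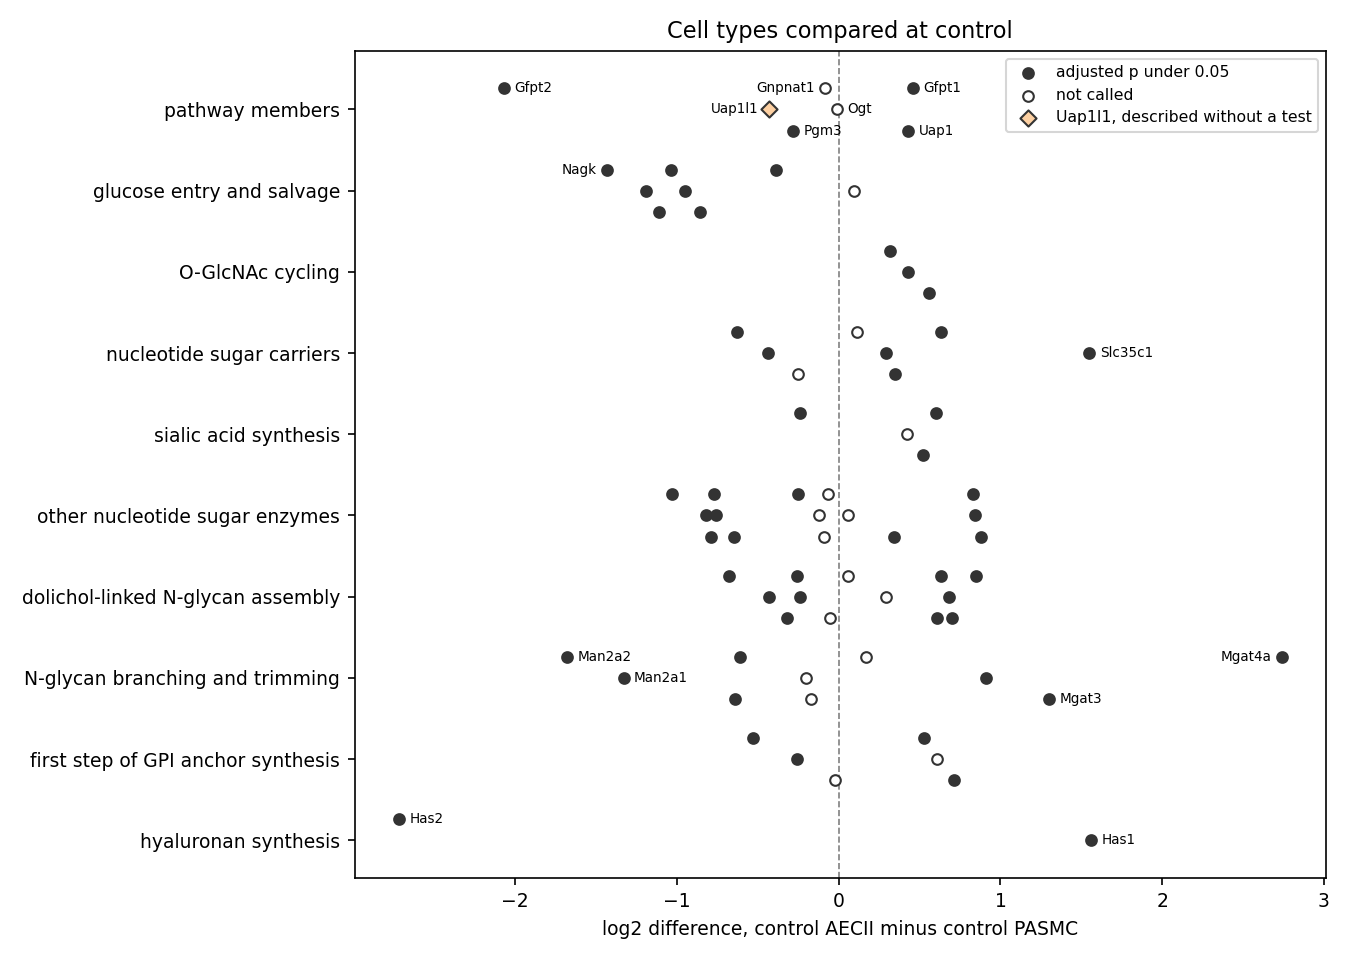
Log2 difference of control AECII minus control PASMC for the members and for each surrounding list. Filled points had a limma adjusted p under 0.05, open points did not, the diamond is Uap1l1, and only genes beyond 1.2 or in the top row are named. The glucose entry and salvage row lies almost wholly to the left (median -0.99), and Gfpt2 and Gfpt1 lie on opposite sides of 0.

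The genes whose levels ran most like Uap1l1 were named by the highest Pearson r over arrays, as a description. Over the 24 PASMC arrays and 14537 genes, these were the collagen-degrading protease Ctsk (r = 0.94), the lysosomal peptidase Dpp7 (0.91), Kazn (0.87), AI413582 (0.84) and Tgoln1 (0.84). With each group's mean removed the 5 values, pooled over the conditions, were 0.84, 0.82, 0.66, 0.78 and 0.71. The 5 genes were picked by r on the same arrays, so these values are no separate check. Ctsk had group means of 11.69, 11.16 and 10.98 in control, nicotine-free and nicotine PASMC, and Dpp7 of 10.47, 9.92 and 9.88. The other 6 members lay between -0.37 (Gfpt1) and 0.29 (Gfpt2), and with group means removed between -0.38 (Gnpnat1) and 0.46 (Gfpt2), with Ogt at 0.44. All points share the arrays and their normalisation.

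Over the 24 AECII arrays and 14474 genes, the 5 genes most like Uap1l1 were others: the fatty-acid-binding protein gene Fabp3 (r = 0.89), Atp6ap2, an accessory subunit of the vacuolar proton pump (0.83), Bex2 (0.81), Mindy1 (0.79) and Ppfibp2 (0.79). With group means removed these were 0.79 to 0.90, again on the arrays that picked them. The other members lay between -0.43 (Uap1) and 0.45 (Gfpt2), and with group means removed between -0.46 and 0.46.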

How the data were processed

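Values are the authors' deposited log2 intensities of 48 Cy3 Agilent arrays. Every array has nearly the same quantiles (quartiles 2.25, 2.97 to 2.98 and 5.78), as after quantile normalisation; limma is a tool listed, with no version, per the submitters' processing notes, and background correction is not given in the sources used here. Of 62976 features, 31465 were named through the platform annotation (29050 by accession), 31511 had no name, and 28 values were missing. Each gene was read on its brightest probe (highest mean over 48 arrays). Genes with a mean above 2.73, the 30th percentile of named features, were tested.

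limma 3.58.1 (R 4.3.3) fitted 3 group means to the 24 arrays of a cell type, or 6 to all 48 for the cell types and the difference of responses. Tests were two-sided with Benjamini-Hochberg adjustment over all genes tested, a call is an adjusted p under 0.05, and the script was tested on simulated data. The number of arrays, 8 a group, limits the precision. The members and lists were chosen with earlier results of these data known. Named were the 7 members, up to 4 called genes with the smallest p per list, the 5 genes most like Uap1l1 per cell type, and marker genes; Dpagt1, Slc35a3, Hk1, Hk2, Gnpda1 and Renbp, and Nagk within PASMC, were named after their values were seen. Replicate numbers showed no clear pairing of the samples, and arrays that may share a mouse were fitted as independent. Alternatives covered blocks, filters, centring, the arrays fitted, eBayes and array weights, probes, the Sftpc level of PASMC arrays and each array left out. Protein sequences of the members were not analysed here.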

Additional observations from a re-analysis of the deposited data

How the results depend on the processing

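The number of members called kept within 1.5 times its value in 106 alternatives and not in 7. Most of these alternatives belong to comparisons with 0 members called at first, where 0 again counts as kept. For PASMC with nicotine extract against control, 4 of 11 moved. With the mean of all probes, members called between the cell types fell to 3 in control (from 5, Uap1l1 counted) and to 2 with nicotine-free extract (from 4); the cause was not tested, but dim second probes enter that mean. Uap1l1 was chosen on PASMC values, so its calls in these counts are a description and no test. It was the member called in both PASMC comparisons that follow. For PASMC with nicotine-free extract, array weights gave 1 member called instead of 0, and leaving out 1 array gave 0 to 1 (1 without control array 2). For PASMC with nicotine extract, 0 members were called instead of 1 with the runs of 8 accessions as a block, with only the arrays compared and with PASMC arrays at or below 6 for Sftpc, and genes called ranged from 0 to 13 (1 to 4 with 1 array left out, from 4).

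With the replicate number as a block, 0 members and 0 genes were called there, and the Uap1l1 difference stayed at -0.93. The numbers showed no clear pairing of the samples, which does not exclude one. Arrays with the same number correlated from -0.21 to 0.28 (median 0.04) in AECII and from -0.40 to 0.62 (median 0.03) in PASMC. Arrays with other numbers had medians of -0.02 and 0.01. In each cell type 5 of 24 arrays correlated best with their own number.

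Called directions that turned came from other probes of a gene, an alternative partly chosen after seeing the data. Between the cell types, Pgm3 was 0.13 in control with the mean of all probes, and 0.53, 0.20 and 0.10 in control, nicotine-free and nicotine extract with its second probe. Gnpnat1 was -0.64 and -0.85 with its second probe under nicotine-free and nicotine extract, and -0.36 with the mean of all probes under nicotine extract. Uncalled extract differences of Gnpnat1 and of Gfpt1 in PASMC also changed sign with the probe. Ogt was -0.50 with its second probe under nicotine extract. In the other settings no called member changed direction. Signal near background limits the second probes of Gfpt1 and Pgm3.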
